A study of Mus musculus with 6 samples.

Results

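The genes described here are 10 genes of the major histocompatibility complex (MHC) and of antigen presentation, taken by name from the 55401 genes of the deposited tables. All 10 had 1 row each, and all 10 passed the filter on low counts. Of these, 5 belong to the class I pathway (*H2-K1*, *H2-D1*, *B2m*, *Tap1* and *Tapbp*) and 5 to the class II pathway (*H2-Aa*, *H2-Ab1*, *H2-Eb1*, *Cd74* and *Ciita*). RNA was measured in 6 libraries of lymphatic endothelial cells (LECs) sorted from the dura mater of wild-type male C57BL/6J mice, as LYVE-1+/PDPN+/CD31+/CD45- cells. At 4 wk of age the mice received, into the cisterna magna, an AAV9 vector encoding either full-length mouse VEGF-C (AAV-VEGF-C) or mVEGFR3 4–7-Ig, a soluble receptor fragment that does not bind VEGF-C (AAV-CTRL). A group held 3 libraries of 10 to 12 pooled meninges, 1 from each of 3 repeats of the experiment, and libraries with the same number came from the same repeat. Both groups therefore carried a virus, and a library stands for a pool of animals and not for 1 mouse.

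MHC class I molecules are made by nearly all nucleated cells and show peptides from inside the cell to CD8+ T cells. Class II molecules are made mainly by dendritic cells, macrophages and B cells, and show peptides of ingested proteins to CD4+ T cells. LECs of lymph nodes are known to carry class I and, at lower levels, class II molecules, and interferon-gamma raises both.

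The promoters of class I and class II genes are known for a shared stretch in which an X2 box and a Y box (an inverted CCAAT box) lie a short distance apart. The transactivators NLRC5 for class I and CIITA for class II act on factors bound there. RefSeq promoters on GRCm38.p6 were found for 7 of the 10 members, and those of *H2-Ab1*, *Cd74* and *Ciita* were not in the table. The 250 bases before each start were searched for TGANG (TGACG in the X2 core, with the fourth base free) followed after 15 to 25 bases by ATTGG, the Y core. Both were found in this order on the gene's own strand in 5 members, while *Tap1* and *Tapbp* had no such pair. Among all 32851 RefSeq promoters, 2.46% held the pair on either strand, and 0.381% held it with TGACG exactly. Alone, TGACG was found in 17.8%, TGANG in 84.8% and ATTGG in 33.8% of promoters, searched on both strands. The stretches of 120 bases that end just before the start are shown because they are the regulatory sequence that both classes share, and capitals mark the 2 cores.
H2-K1, chr17:34000348-34000467, minus strand: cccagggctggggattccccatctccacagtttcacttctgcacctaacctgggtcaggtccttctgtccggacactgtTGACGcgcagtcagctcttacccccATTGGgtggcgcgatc
H2-D1, chr17:35262974-35263093, plus strand: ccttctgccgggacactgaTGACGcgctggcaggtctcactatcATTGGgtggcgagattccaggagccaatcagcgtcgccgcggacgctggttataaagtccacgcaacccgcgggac
B2m, chr2:122147567-122147686, plus strand: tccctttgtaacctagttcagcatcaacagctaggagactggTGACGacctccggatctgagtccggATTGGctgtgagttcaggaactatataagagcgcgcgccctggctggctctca
H2-Aa, chr17:34287824-34287943, minus strand: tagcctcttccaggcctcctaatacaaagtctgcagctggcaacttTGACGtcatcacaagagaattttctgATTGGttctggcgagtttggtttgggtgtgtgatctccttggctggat
H2-Eb1, chr17:34305747-34305866, plus strand: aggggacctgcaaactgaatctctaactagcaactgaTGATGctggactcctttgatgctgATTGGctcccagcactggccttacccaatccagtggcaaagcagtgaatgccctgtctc
In the 3 class I members shown the cores lay 20 bases apart. The distance was 21 bases in *H2-Aa* and 19 bases in *H2-Eb1*, where the X2-like letters were TGATG. A match of letters is a description of the sequence and does not show that a factor is bound.

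In the GRCm38 annotation (GENCODE M21) 7 members lie within the MHC on chromosome 17, from *Tapbp* (chr17:33915899-33929292) to *H2-D1* (chr17:35262730-35267499). *B2m* lies apart at chr2:122147686-122153083, *Ciita* at chr16:10480059-10528418 and *Cd74* at chr18:60803848-60812652. *H2-K1* and *H2-D1* have near-identical relatives among the H2-Q and H2-T genes, and the deposited counts are estimates that can split reads between such copies, so their counts are uncertain. *B2m*, *Ciita*, *H2-Eb1*, *Tap1*, *Tapbp* and *Cd74* each overlap at least 1 other gene, and their counts are uncertain for that reason.

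The libraries differed in depth and in the levels of cell type markers. Total counts were 6530269 to 12399498 in AAV-CTRL, against 564475 to 3261935 in AAV-VEGF-C, so depth and treatment cannot be told apart. Reads in 1935 genes of families silent in endothelium (olfactory receptors and the like) took 159 to 293 CPM (counts scaled by the library sum) in AAV-CTRL, against 2884 to 7053 in AAV-VEGF-C. Their mean level per gene was 0.0245 to 0.0357 TPM (a level corrected for gene length and library sum) in AAV-CTRL, against 0.337 to 0.387 in AAV-VEGF-C. All 15 lymphatic endothelial markers, among them *Prox1*, *Lyve1* and *Flt4*, had counts in all 6 libraries. Markers of leukocytes and professional antigen-presenting cells separated the experiments. Their summed TPM over 32 genes was 40.7, 3228 and 2092 in AAV-CTRL 1, 2 and 3, and 28.3, 1528 and 989 in AAV-VEGF-C 1, 2 and 3. The 15 lymphatic markers summed to 747, 887 and 995 TPM in AAV-CTRL and to 438, 417 and 311 TPM in AAV-VEGF-C. Of this, *Stab1* alone was 41.9, 269 and 159 TPM in AAV-CTRL and 22.1, 161 and 95.7 TPM in AAV-VEGF-C. On counts scaled between libraries (TMM-scaled CPM) the markers summed to 3681, 4858 and 3429 in AAV-CTRL. In AAV-VEGF-C they summed to 6870, 4313 and 2388, so AAV-VEGF-C 1 was then the highest library. In TPM the leukocyte sum was thus below the lymphatic sum in both libraries of experiment 1. It was above the lymphatic sum in all 4 libraries of experiments 2 and 3, although CD45+ cells were excluded by the sort. *Ptprc*, which encodes CD45, was at 0.119, 25.7 and 23.2 TPM in AAV-CTRL and at 0.337, 15.1 and 9.81 TPM in AAV-VEGF-C. Of the 32 leukocyte markers, AAV-CTRL 1 lacked counts for *Cd3e*, *Cd79b*, *Ms4a1*, *Nkg7*, *S100a8* and *Xcr1*. AAV-VEGF-C 1 lacked counts for *Adgre1*, *Ccr7*, *Cd163*, *Cd79b*, *Clec9a*, *Ms4a1*, *S100a8* and *Tyrobp*. In bulk RNA, fewer cells of a type and less RNA per cell cannot be told apart.

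The levels of the members were compared per length. In AAV-CTRL the highest mean was that of *Cd74*, the invariant chain that guides class II molecules to endosomes, at 628 ± 493 TPM (SD, n = 3). *B2m*, the light chain of every classical class I molecule, followed at 354 ± 265 TPM. Next came the class II chain genes *H2-Ab1* (280 ± 218 TPM) and *H2-Eb1* (245 ± 194 TPM), the class I heavy chain genes *H2-D1* (232 ± 108 TPM) and *H2-K1* (229 ± 101 TPM), and the class II alpha chain gene *H2-Aa* (162 ± 126 TPM). These 7 genes did not differ from their neighbours in this order beyond their spread, nor did *H2-Aa* from the next, *Tapbp*. *Tapbp* (tapasin, which links class I molecules to the peptide transporter) was at 90.4 ± 10.5 TPM, *Tap1* (a subunit of that transporter) at 15.7 ± 6.95 TPM and *Ciita* (the class II transactivator) at 3.09 ± 2.91 TPM. The ranges of *Tapbp*, *Tap1* and *Ciita* did not overlap each other in AAV-CTRL. In AAV-VEGF-C the means were lower for all 10 members, from 311 ± 279 TPM for *Cd74* down to 2.76 ± 1.82 TPM for *Ciita*. TPM was lower there over genes in general, with a median difference of -0.72 over all genes tested on the log2(TPM + 1) scale. The treatments were therefore compared on counts scaled between libraries (TMM-scaled CPM), given next.

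*H2-K1*, a classical class I heavy chain, was at 273, 563 and 386 TMM-scaled CPM in AAV-CTRL 1, 2 and 3. It was at 146, 437 and 299 in AAV-VEGF-C 1, 2 and 3. The groups overlapped, and in both of them the library of experiment 1 was the lowest. The log2 fold change, AAV-VEGF-C minus AAV-CTRL, was -0.47 (SE 0.46, edgeR adjusted p = 0.553). *H2-D1*, the other classical heavy chain measured, had the same order, with 376, 776 and 606 TMM-scaled CPM in AAV-CTRL. In AAV-VEGF-C it was at 227, 644 and 404, and the fitted difference was -0.46 (SE 0.46, edgeR adjusted p = 0.558). Neither heavy chain gene passed the test.

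*B2m* was at 145, 268 and 414 TMM-scaled CPM in AAV-CTRL and at 37.0, 226 and 142 in AAV-VEGF-C. It was the class I member with the widest spread, and AAV-VEGF-C 1 had only 16 counts (28.3 CPM, 95% Wilson interval 17.5 to 46.1, which covers counting error only). Within experiments 1, 2 and 3 its log2 ratio of AAV-VEGF-C to AAV-CTRL was -1.97, -0.25 and -1.55. The fitted log2 fold change was -1.01 (SE 0.63, edgeR adjusted p = 0.333), and -1.21 (SE 0.37, edgeR adjusted p = 0.0608) with the experiment as a block. It was called lower in 1 alternative, with no filter on low counts (-1.21, edgeR adjusted p = 0.033).

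The genes of the peptide loading machinery were measured next. *Tap1* was at 49.0, 81.7 and 60.0 TMM-scaled CPM in AAV-CTRL and at 32.4, 69.5 and 59.2 in AAV-VEGF-C. Its groups overlapped, and the log2 fold change was -0.22 (SE 0.35, edgeR adjusted p = 0.739). *Tapbp* was at 350, 312 and 281 TMM-scaled CPM in AAV-CTRL and at 127, 209 and 201 in AAV-VEGF-C. It was the 1 member of 10 whose AAV-VEGF-C libraries all lay below all AAV-CTRL libraries, an arrangement found for 17.6% of all genes tested. Its log2 fold change was -0.81 (SE 0.30, edgeR adjusted p = 0.13), which did not pass the test.

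**Figure D1:**
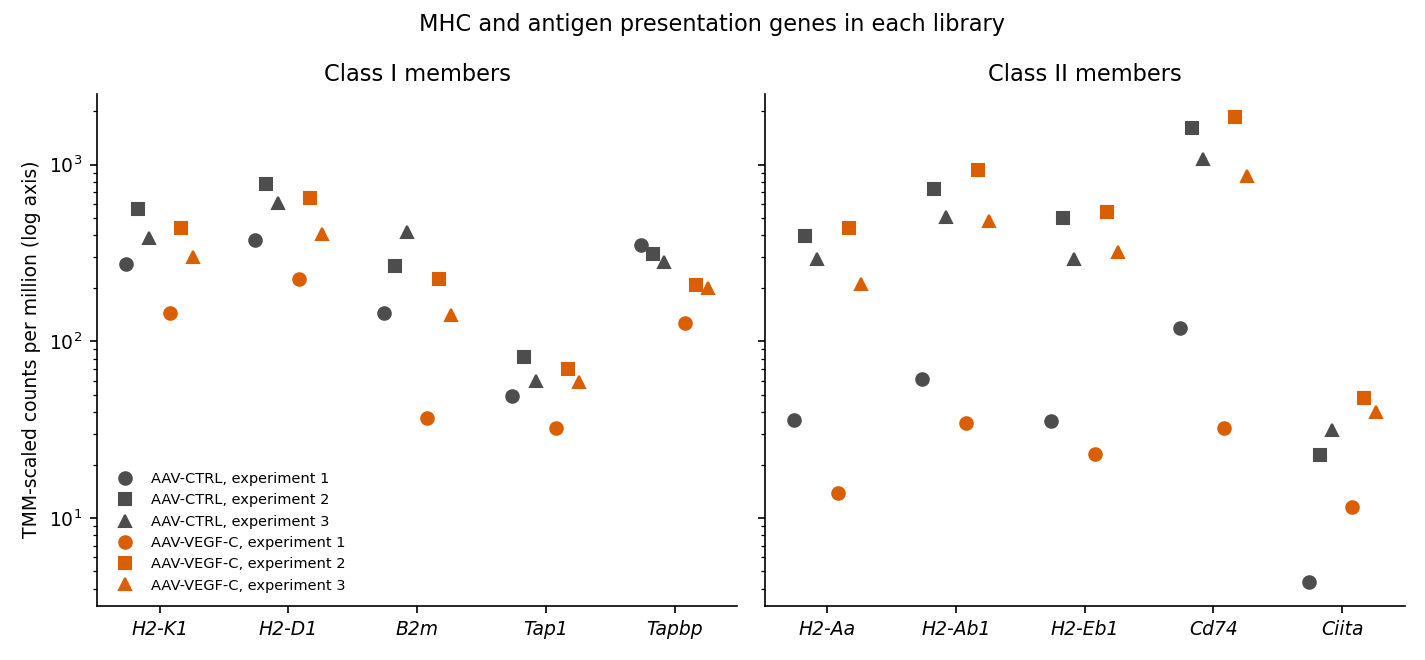
TMM-scaled CPM (log axis) of the 10 members, 1 point per library, with colours for AAV-CTRL and AAV-VEGF-C and shapes for experiments 1 to 3. The circles of experiment 1 lie far below the other points for the class II genes in both groups (for *Cd74*, 120 and 32.4 against 861 to 1864), while *Tapbp* alone separates the groups.

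The class II genes were measured in the same way. *H2-Aa* was at 36.1, 393 and 292 TMM-scaled CPM in AAV-CTRL and at 13.9, 437 and 210 in AAV-VEGF-C, where AAV-VEGF-C 1 had 6 counts (10.6 CPM, 95% Wilson interval 4.87 to 23.2). The beta chain gene *H2-Ab1* was at 61.5, 726 and 503 in AAV-CTRL and at 34.7, 937 and 483 in AAV-VEGF-C. Both libraries of experiment 1 were low and the 4 others high, in both treatments. *H2-Eb1*, the beta chain gene of the second class II isotype, was at 35.5, 496 and 294 TMM-scaled CPM in AAV-CTRL and at 23.1, 541 and 320 in AAV-VEGF-C. *Cd74* was at 120, 1620 and 1073 in AAV-CTRL and at 32.4, 1864 and 861 in AAV-VEGF-C, where AAV-VEGF-C 1 had 14 counts. *Ciita*, which switches class II genes on, was at 4.34, 22.9 and 31.6 TMM-scaled CPM in AAV-CTRL and at 11.6, 48.0 and 39.7 in AAV-VEGF-C.

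None of the 5 class II members passed the treatment test. The log2 fold changes were -0.11 for *H2-Aa* (SE 1.08, edgeR adjusted p = 0.967), 0.18 for *H2-Ab1* (SE 1.09, edgeR adjusted p = 0.945) and 0.11 for *H2-Eb1* (SE 1.08, edgeR adjusted p = 0.967). *Cd74* was at -0.026 (SE 1.22, edgeR adjusted p = 0.995). With SEs above 1 on the log2 scale, differences of 2-fold in either direction were within the error of these 4 genes. With the experiment as a block their SEs were 0.30 to 0.44, and the log2 fold changes were -0.43, -0.11, -0.059 and -0.56 (edgeR adjusted p from 0.423 to 0.916). *Ciita* was at 0.81 (SE 0.71, edgeR adjusted p = 0.502), and 0.83 (SE 0.35, edgeR adjusted p = 0.139) with the block. In TMM-scaled CPM it was higher in AAV-VEGF-C in all 3 experiments, by 1.41, 1.07 and 0.33 on the log2 scale. In TPM it was higher in experiments 1 and 2 but lower in experiment 3 (3.89, against 6.21 in AAV-CTRL). AAV-VEGF-C 1 had 5 counts of it, and its 0.659 TPM there stands beside the 0.387 TPM per gene of the silent families. The part of that background in the *Ciita* difference was not tested.

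Over all 10 members, 0 were called higher and 0 lower in AAV-VEGF-C by edgeR, where 10.5% of the 17459 genes tested were called higher and 0.659% lower. At an unadjusted p under 0.05, 0 members were higher and 1 was lower (*Tapbp*). With the experiment as a block the members' counts were again 0 and 0, against 12.8% higher and 2.07% lower over all genes, and 1 higher and 2 lower at an unadjusted p under 0.05. DESeq2 also called 0 higher and 0 lower, with 0 and 1 at an unadjusted p under 0.05. The median log2 fold change was -0.47 over the class I members and 0.11 over the class II members, and -0.0037 over all genes tested. For the more abundant of these genes (mean TPM 5 or more) it was -0.41. Of those 7234 genes, which include all members but *Ciita*, 122 were called higher and 105 lower by edgeR. With the experiment as a block 307 of them were called higher and 336 lower. Scaling on the 2000 most abundant genes moved the median of all genes to 0.45, that of the class I members to -0.030 and that of the class II members to 0.52.

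**Figure D2:**
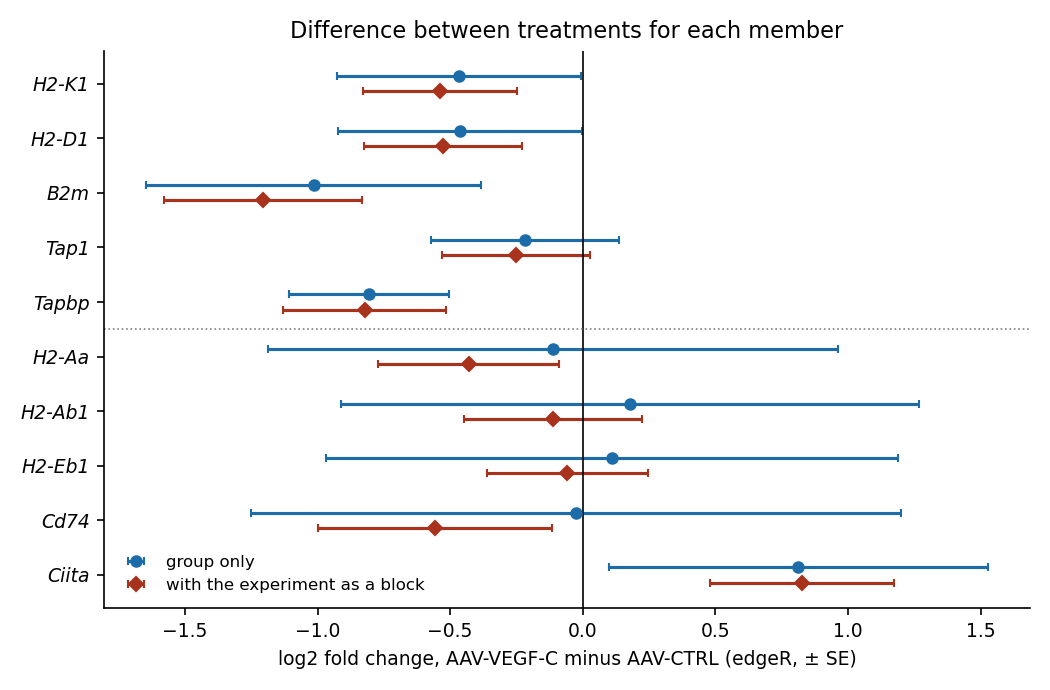
log2 fold change of each member, AAV-VEGF-C minus AAV-CTRL, with its SE from edgeR, fitted on the group only (circles) and with the experiment as a block (diamonds). Class I genes lie above the dotted line and class II genes below it, and the bars of *H2-Aa*, *H2-Ab1*, *H2-Eb1* and *Cd74* shorten from SEs of 1.08 to 1.22 to SEs of 0.30 to 0.44 under the block.

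The experiments were then compared with each other across both treatments, by a test of the experiment term in the edgeR fit, which was chosen after the values had been seen. Of the 10 members 4 differed between experiments, where 2.35% of all genes tested did, and 310 of the 7234 with a mean TPM of 5 or more. All 4 were class II genes: *H2-Aa* (edgeR adjusted p = 0.00558), *H2-Ab1* (0.00524), *H2-Eb1* (0.00345) and *Cd74* (0.0105). For *Cd74* the log2 difference was 4.61 between experiments 2 and 1 and 3.72 between experiments 3 and 1. For *H2-Eb1* these differences were 4.08 and 3.32, for *H2-Ab1* 4.07 and 3.31, and for *H2-Aa* 4.02 and 3.25. *Ciita*, at 2.34 and 2.46, did not pass (edgeR adjusted p = 0.0501). In TMM-scaled CPM, *Cd74* was 13.5-fold higher in AAV-CTRL 2 and 8.96-fold higher in AAV-CTRL 3 than in AAV-CTRL 1. In AAV-VEGF-C the same ratios were 57.6-fold and 26.6-fold, over the 14 counts of AAV-VEGF-C 1.

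Of the class I genes, 0 of 5 passed the test of the experiment term, and the difference between the classes was not itself tested. The log2 differences of experiments 2 and 3 from experiment 1 were 1.70 and 1.62 for *B2m* (edgeR adjusted p = 0.202), 1.29 and 0.75 for *H2-K1* (0.279) and 1.27 and 0.75 for *H2-D1* (0.306). They were 0.87 and 0.53 for *Tap1* and 0.22 and 0.13 for *Tapbp*. Every fitted class I difference was positive, as were those of class II. The medians were 1.27 and 0.75 over the class I members, 4.07 and 3.31 over the class II members, and -0.10 and -6e-04 over all genes tested. For *Tapbp* the groups went opposite ways in TMM-scaled CPM. Experiments 2 and 3 were at 0.892-fold and 0.804-fold of experiment 1 in AAV-CTRL, against 1.64-fold and 1.58-fold in AAV-VEGF-C. Without AAV-CTRL replicate 2 the members called fell from 4 to 3, since *Cd74* was then at an edgeR adjusted p of 0.0521. They rose to 6 without AAV-VEGF-C replicate 3 and with no filter on low counts, where *B2m* (edgeR adjusted p = 0.003 and 0.00858) and *Ciita* (0.0012 and 0.000471) were added.

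**Figure D3:**
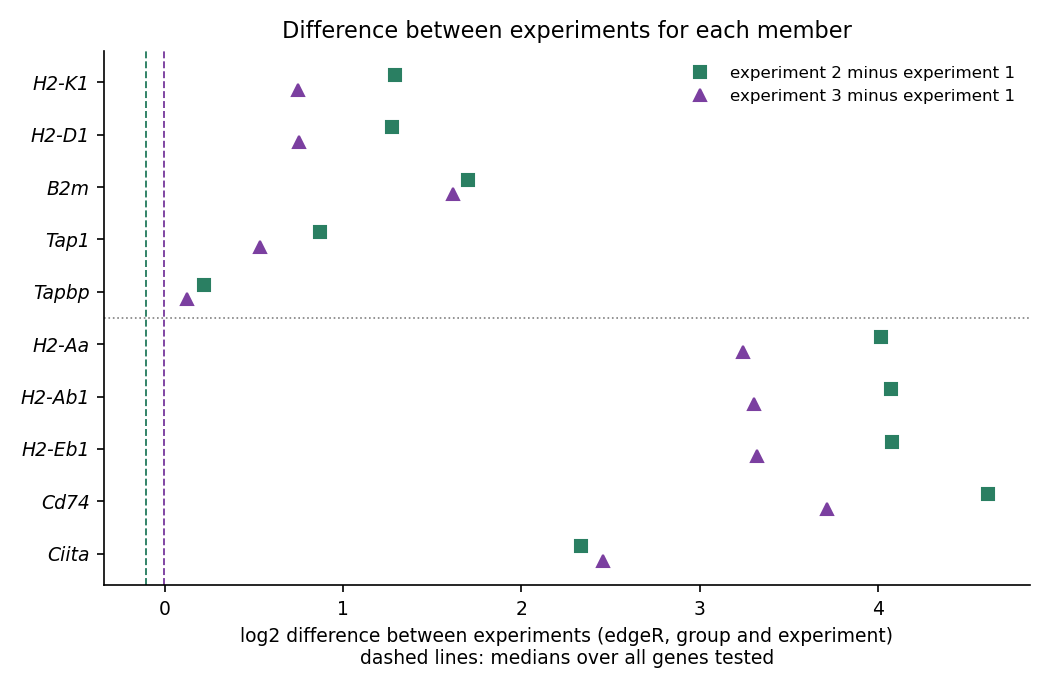
log2 difference of experiment 2 (squares) and experiment 3 (triangles) from experiment 1 for each member, from the edgeR fit with group and experiment, with dashed lines at the medians over all genes tested (-0.10 and -6e-04). Class II genes, below the dotted line, lie between 2.34 and 4.61, and class I genes between 0.13 and 1.70.

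Leukocyte markers moved with the class II genes. Of the 32 markers 25 were tested. Of these, 15 differed between experiments, and 0 were called by treatment. Between experiments 2.35% of all genes tested differed, and 310 of the 7234 with a mean TPM of 5 or more. The medians of the list were 5.38 and 4.41 for experiments 2 and 3 minus experiment 1. *Ptprc* differed by 7.19 and 6.41 (edgeR adjusted p = 0.00171). Of the 15 lymphatic markers 2 differed (*Reln* and *Prox1*, both lower in experiments 2 and 3), with medians of -0.86 and -0.98 over the list. The others did not pass, and their values had both signs. *Ccl21a* was at -1.55 and -2.29, *Mmrn1* at -1.50 and -2.21 and *Flt4* at -1.36 and -1.87. Both values were positive only for *Stab1* (2.03 and 0.82), *Tek* (1.59 and 2.61) and *Pecam1* (0.27 and 0.63). Blood endothelial markers had medians of 2.44 and 3.01, with 2 of 12 tested called. Their summed TMM-scaled CPM was 464 to 3525 in AAV-CTRL, against 700 to 1212 in AAV-VEGF-C, so the groups overlapped. For 10 fibroblast markers 0 differed between experiments, and their summed TMM-scaled CPM was 9813 to 23370 in AAV-CTRL, against 6271 to 10901 in AAV-VEGF-C. The sums of the groups overlapped, and 2 markers (*Dcn* and *Ogn*) were called lower by treatment, where 0.659% of all genes tested were. With the experiment as a block 5 were lower (*Lum*, *Mgp* and *Pdgfra* added), and without experiment 1 *Dcn* and *Ogn* were no longer called (edgeR adjusted p = 0.0569 and 0.0627). The part of any of these cells in the class II and class I levels was not tested.

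Class I was then set against class II within each library by summed TPM. The 5 class I members summed to 449, 913 and 1400 TPM in AAV-CTRL 1, 2 and 3, and the 5 class II members to 129, 1912 and 1913 TPM. In AAV-VEGF-C 1, 2 and 3 the sums were 70.5, 426 and 375 TPM for class I and 16.0, 1194 and 841 TPM for class II. The ratio of class II to class I was 0.288, 2.09 and 1.37 in AAV-CTRL, against 0.227, 2.81 and 2.25 in AAV-VEGF-C. Class I thus exceeded class II in both libraries of experiment 1, and class II exceeded class I in the 4 others. On the log2 scale the ratio was -0.093 ± 1.51 (SD, n = 3) in AAV-CTRL, against 0.17 ± 2.01 in AAV-VEGF-C, a difference of 0.27 that was smaller than the spread in either group. Within experiments 1, 2 and 3 the difference was -0.34, 0.42 and 0.72. Without experiment 1 it was 0.57. Leaving out 1 library turned its sign without AAV-CTRL 1 (-0.59), AAV-VEGF-C 2 (-0.39) or AAV-VEGF-C 3 (-0.23), and raised it to 1.42 without AAV-VEGF-C 1, 0.85 without AAV-CTRL 2 and 0.54 without AAV-CTRL 3.

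**Figure D4:**
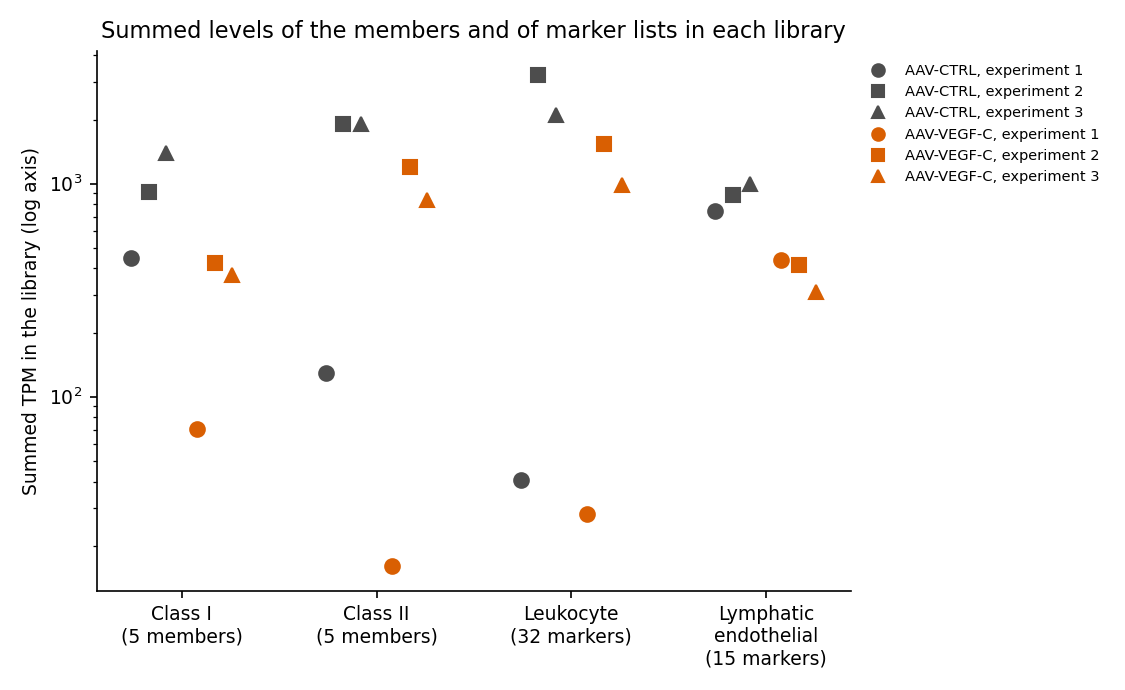
Summed TPM (log axis) of the 5 class I members, the 5 class II members, 32 leukocyte markers and 15 lymphatic endothelial markers, 1 point per library, coloured by group and shaped by experiment. Class II ran from 16.0 to 1913 TPM and the leukocyte markers from 28.3 to 3228 TPM, with both circles of experiment 1 lowest. The lymphatic markers were between 311 and 995 TPM, and TPM was lower in AAV-VEGF-C over genes in general.

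Leaving out both libraries of experiment 1, an alternative added after the values had been seen, 0 of 10 members were called in either direction by edgeR (0 higher and 1 lower at an unadjusted p under 0.05). The log2 fold changes were then -0.17 for *H2-Aa*, 0.13 for *H2-Ab1*, 0.044 for *H2-Eb1* and -0.064 for *Cd74*. They were -0.97 for *B2m* and -0.61 for *Tapbp*.

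The members were alike within their class over the 6 libraries. Pearson correlations of log2 TMM-scaled CPM were 0.771 to 0.999 (median 0.988) over the 10 pairs of class II genes and 0.618 to 0.991 (median 0.877) over the 10 pairs of class I genes. Over the 25 pairs between classes they were -0.214 to 0.949 (median 0.86). These values describe 6 libraries that fall apart by experiment and share their depth, so they carry no test. Among 6397 other protein-coding genes of mean TPM 5 or more, the 5 most like *Cd74* were *Pirb*, *Ifi207*, *Rgs10*, *Uba7* and *Adgre1* (0.998 to 0.999). *Adgre1*, which marks macrophages, is in the leukocyte list. The 5 most like *B2m* were *Rps15a*, *Lbr*, *Pnpla8*, *mt-Nd1* and *mt-Co1* (0.994 to 0.998).

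Other genes of the pathways were counted by list, beside the shares over all genes tested. Among the 7234 tested genes of mean TPM 5 or more, edgeR called 122 higher and 105 lower, and 310 differed between experiments. The 17 class I pathway genes cover chaperones, proteasome subunits and transporters and include the 5 members. Of these 17, 0 were called higher and 1 lower by edgeR, where 10.5% of all genes tested were called higher and 0.659% lower. The 1 was *Pdia3* (ERp57, part of the peptide loading complex), with 1910, 2093 and 6126 counts in AAV-CTRL, against 41, 202 and 512 in AAV-VEGF-C. Its log2 fold change was -1.34 (SE 0.32, edgeR adjusted p = 0.0358), and -1.29 (edgeR adjusted p = 0.0556) without experiment 1. The call was lost without any 1 of the 6 libraries (edgeR adjusted p from 0.057 to 0.0975). The chaperones *Calr* (265 mean TPM over the 6 libraries) and *Canx* (182) were, with *B2m* (220), the most abundant of the list, at log2 fold changes of -0.83 (edgeR adjusted p = 0.13) and -0.79 (0.123). In this list 0 genes differed between experiments. Over its 17 genes the median log2 fold change was -0.51.

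Non-classical class I genes encode relatives of the heavy chains with narrower roles. Of 19 such genes, 12 were tested, 1 was called higher and 0 lower, where 10.5% of all genes tested were called higher, and 0 differed between experiments. The 1 was *H2-Q10*, which encodes a secreted class I molecule made in liver, with 17, 21 and 26 counts in AAV-CTRL, against 6, 24 and 47 in AAV-VEGF-C. Its log2 fold change was 2.65 (SE 0.42, edgeR adjusted p = 0.0193), at levels of 0.324 to 0.376 TPM and 0.562 to 1.44 TPM, where the silent families lay at 0.337 to 0.387 TPM per gene in AAV-VEGF-C. The part of that background in the *H2-Q10* difference was not tested. The call was lost without replicate 2 or 3 of either group (edgeR adjusted p from 0.0549 to 0.0772). The most abundant of the list were *Fcgrt* (the neonatal Fc receptor, 71.8 mean TPM), *H2-T23* (Qa-1, 31.4) and *H2-Q4* (27.5), with log2 fold changes of -0.79, -0.58 and -0.46 and edgeR adjusted p of 0.178 to 0.447. These genes resemble one another in sequence, and their counts are uncertain.

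Of 21 class II pathway genes in the tables, which include the 5 members, 19 were tested. Of these, 0 were called higher and 1 lower by edgeR, against 10.5% and 0.659% of all genes tested. The 1 was *Ctsl* (cathepsin L, a lysosomal protease), with 1513, 1636 and 2683 counts in AAV-CTRL, against 40, 156 and 377 in AAV-VEGF-C (fitted log2 difference -1.01, SE 0.26, edgeR adjusted p = 0.0472, and 0.0932 without experiment 1). Its call was also lost without any 1 library (edgeR adjusted p from 0.0652 to 0.109). With the experiment as a block *H2-Eb2* was added as higher (at 4.55, SE 1.13, edgeR adjusted p = 0.0291), on 5, 0 and 1 counts in AAV-CTRL, against 3, 5 and 11 in AAV-VEGF-C. Its level in AAV-VEGF-C was 0.477 to 0.543 TPM, beside the 0.337 to 0.387 TPM per gene of the silent families, and the part of that background was not tested. By experiment 8 of the 19 differed, where 2.35% of all genes tested did. Beside the 4 members these were *Ctss* (cathepsin S), *Lgmn* (legumain), *H2-DMa* (a chain of the peptide exchanger of class II) and *Marchf1* (a ligase that removes class II from the surface), named here after their values were seen. *Ctss* had 19, 2556 and 2833 counts in AAV-CTRL, against 1, 368 and 388 in AAV-VEGF-C, with log2 differences of 6.83 and 5.83 from experiment 1 (edgeR adjusted p = 0.00155). *H2-Ea* encodes the alpha chain partner of the *H2-Eb1* product and is known to be disabled in the b haplotype of C57BL/6 mice. It had 0 counts in the 3 AAV-CTRL libraries and 2, 0 and 1 counts in AAV-VEGF-C 1, 2 and 3, which is at or under the floor of 3 counts, and it was not tested.

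Genes that carry interferon signals to the MHC were 13, all tested, with 0 called higher, 1 lower and 1 (*Irf8*) different between experiments. Over all genes tested the shares were 10.5% higher, 0.659% lower and 2.35% different between experiments. The 1 lower gene was *Jak2*, a kinase of the interferon-gamma receptor, with 346, 498 and 964 counts in AAV-CTRL, against 9, 43 and 117 in AAV-VEGF-C (fitted log2 difference -1.08, SE 0.28, edgeR adjusted p = 0.0479, and 0.0556 without experiment 1). Without any 1 library it was no longer called (edgeR adjusted p from 0.0638 to 0.116). *Irf1*, an interferon-induced transcription factor, and the kinase gene *Jak1* were the most abundant, at 139 and 39.0 mean TPM, and had log2 fold changes of -0.41 (edgeR adjusted p = 0.63) and -0.58 (0.253). The regulators of the promoters shown above did not pass either. *Nlrc5* was at 0.0825 (SE 0.50, edgeR adjusted p = 0.945), with experiment differences of 1.54 and 1.33 (0.15), and *Rfx5*, a subunit of the factor bound beside the X2 box, at -0.45 (SE 0.51, edgeR adjusted p = 0.604). Of 9 co-stimulation and checkpoint genes 8 were tested and 0 were called by treatment. Of these, 2 differed between experiments (*Cd86* and *Vcam1*), and *Cd86*, a co-stimulator of antigen-presenting cells, had 0, 648 and 684 counts in AAV-CTRL, against 0, 125 and 92 in AAV-VEGF-C.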

How the data were processed

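Per the labels, total RNA of the sorted dural LECs went into a stranded low-input kit. The authors deposited 1 estimated count per gene and library, without scaling, and 1 TPM value, corrected by them for gene length and library sum. The submitters' processing notes name FastQC, Trimmomatic, DRAGEN and Picard and the build mm10, and the use of strand or molecular identifiers in counting is not given in the sources used here. Of the identifiers, 98.1% equal those of GENCODE M21 with their version and 99.5% without it.

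Counts were rounded, filtered (filterByExpr), scaled by TMM and compared by the quasi-likelihood test of edgeR (version 4.0.16, in R 4.3.3), fitted over all genes on the group, with Benjamini-Hochberg adjustment at 0.05. DESeq2 (1.42.0, the test of the study) and limma (3.58.1) on log2 TPM or voom values were alternatives, with other scalings, filters, left-out libraries, counts drawn down to the smallest library, and the replicate block. The test between experiments and the fits without experiment 1 were added after the data were seen. The members and lists were chosen with earlier results of these data known, so no list was given a test. Named genes are the members, listed MHC, class II and interferon genes that were called, the 3 most abundant of each such list, the regulators *Nlrc5*, *Rfx5* and *Irf1*, and *H2-Ea*. Of the genes this rule names, 1 is not reported here.

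Replicate numbers are tied by the labels to repeats of the experiment, and on that ground they were taken to pair the libraries. Deviations from the group means correlated across genes at 0.387, 0.277 and 0.169 for the same number and at most 0.226 for different ones. AAV-CTRL 3 was closer to AAV-VEGF-C 2 (0.226) than to AAV-VEGF-C 3 (0.169). AAV-VEGF-C 3 was closest to AAV-CTRL 3 (0.169, against 0.0425 for AAV-CTRL 2 and -0.177 for AAV-CTRL 1). The correlations thus do not bear out the pairing of experiment 3 from both sides. Libraries of 1 group differed beyond counting noise in every pair (chi-square at least 7.7 per degree of freedom). The scripts were tested on simulated data. With 3 pools a group, p-values measure the spread between these pools. Totals from 564475 to 12399498 counts limit the AAV-VEGF-C libraries most.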

Additional observations from a re-analysis of the deposited data

How the results depend on the processing

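No member was called higher in any fit, and *B2m* with no filter (-1.21) was the 1 member called lower in any. *H2-K1*, *H2-D1*, *B2m*, *Tapbp* and *Ciita* kept their sign in all fits they entered. *Tap1* turned to 0.23 when TMM used the top 2000 genes by abundance and to 0.11 when genes under a mean TPM of 5 were left out. For the same settings *H2-Aa* turned to 0.29 and 0.14 and *Cd74* to 0.37 and 0.22, and after drawing down to 0.21 and 0.26. *H2-Aa* was at 0.0003 under voom. *H2-Ab1* and *H2-Eb1* turned to -0.012 and -0.085 with no filter, -1.28 and -1.24 by limma with a pseudocount of 1, -1.34 and -1.31 with one of 0.1, and -0.11 and -0.059 with the replicate block, which changed no call among the members. Leaving out one replicate gave -1.17 to 0.39 for *H2-Aa*, -0.83 to 0.74 for *H2-Ab1*, -0.76 to 0.80 for *H2-Eb1* and -1.17 to 0.58 for *Cd74*.

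The number of genes called moved more. The 115 lower genes became 53 without TMM factors, 8 with TMM on the top 2000 genes, 1175 with no filter and 0 with the TPM minimum. They became 504 in DESeq2, 434 in limma with a pseudocount of 1, 267 in voom, 362 with the replicate block and 0 after drawing down. The 1835 higher genes became 9382, 9, 5669 and 1112 with no filter, the TPM minimum, DESeq2 and that limma fit, and 15 after drawing down. Leaving out one replicate gave 0 to 48 lower and 0 to 1771 higher genes. The 411 genes that differed between experiments became 1113 with no filter and 251 with the TPM minimum, and 143 to 1367 without one replicate. *Pdia3*, *Ctsl* and *Jak2* each lost their call in all 6 fits that left out 1 library, and *H2-Q10* in 4 of 6. The causes were not tested. The log2 difference in the ratio of class II to class I (0.27) ran from -0.59 to 1.42 when one replicate was left out, within its spread, and from 0.26 to 0.57 in the other alternatives. Low counts limit AAV-VEGF-C 1 most, where class II members had 5 to 15 counts.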
